A study of Bos taurus with 16 samples.

Results

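The libraries described here are the granulosa-rich ones of a bovine RNA sequencing series, chosen by their level of INHA, the alpha subunit of inhibin, above 1000 CPM (counts of a gene per 1000000 counts of the library). The threshold was applied to counts of RefSeq accessions summed per gene and divided by the library total, and 9 of 16 libraries passed it, 5 labelled control (replicates 2, 3, 4, 7 and 8) and 4 labelled treatment (replicates 4, 5, 6 and 7). INHA lay at 1759 to 3041 CPM in these libraries and at 0.404 to 111.4 CPM in the 7 others, so no library was near the threshold. INHA chose the libraries and is given only as a description.

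All libraries came from lactating Holstein cows of a cohort of 45, and the series title concerns granulosa cells after a uterine disease has resolved. Per the protocols, every cow received GnRH 53 and prostaglandin F2α 60 days after calving, each ± 3 days, and the dominant follicle was aspirated 63 ± 3 days after calving, 72 h after the prostaglandin and before the next GnRH injection. Granulosa cells were spun out of the flushed fluid and washed. Cows with metritis, an infection of the uterus after calving, had received the antibiotic ceftiofur, but the labels tie no library to a diagnosis. The labels do not say what "treatment" stands for, and both groups share the hormone injections, the sampling and the diet. The tissue field of every library reads blood. Each library carries a replicate number and none is tied to a cow, and the spread behind each p-value is that among these libraries, which may in part be technical.

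Granulosa cells line the follicle around the oocyte. Under follicle-stimulating hormone (FSH) they divide, form inhibin and activin, and turn androgens from the neighbouring theca cells into oestradiol through the aromatase CYP19A1. The layer has no blood vessels of its own before ovulation, and its cells are known to use glycolysis. The surge of luteinising hormone (LH) ends this phase: aromatase is shut down, immediate early genes and epidermal growth factor-like ligands such as AREG are switched on, and the wall of the follicle is remodelled. An aspirate can also carry theca, blood and epithelial cells.

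The 9 libraries held 9211890 to 14348753 counts, on average 11835116 ± 1854003 for the 5 control and 10439050 ± 1574387 for the 4 treatment libraries (mean ± SD), a difference within the spread (two-sided exact permutation p = 0.254). A gene at 0 could lie at up to 0.330 CPM, the value of 3 counts in the smallest library, and this limit covers counting error only. No pair agreed within sampling noise. Treatment replicate 5 stood apart at the low end: 439 of 6278 well-expressed genes lay over 2 log2 units below all 8 other libraries, against 1 to 125 genes in each of the others. Treatment replicate 7 had 35 such genes above and 54 below the range of the others, and it is the library whose removal is given beside many of the results. Single-library values are in CPM with TMM scaling and follow the order of the replicate numbers above.

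The granulosa markers that had no part in the choice were abundant in 8 of the 9 libraries, and several of them were low in treatment replicate 7. CYP19A1 lay at 28119, 14715, 25282, 21967 and 23390.0 CPM in control and at 7188, 24758, 19054 and 259 CPM in treatment. Aromatase was therefore lowest by far in treatment replicate 7, and the 3 other treatment libraries overlapped the controls in part. FSHR, the receptor of FSH, was measured at 499, 321, 431, 555 and 378 CPM in control and 462, 532, 399.6 and 103 CPM in treatment. AMH, the anti-Müllerian hormone of growing follicles, was measured at 367, 291, 356, 301 and 381 CPM in control and 385, 209, 261 and 190.0 CPM in treatment. Both groups overlapped for these genes, and the log2 fold changes of treatment against control were -0.82 ± 0.83 (SE) for CYP19A1, -0.22 ± 0.40 for FSHR and -0.38 ± 0.25 for AMH. Without treatment replicate 7 they were -0.42, 0.09 and -0.25. INHA itself lay at 2993, 1806, 2952, 3221 and 1790.1 CPM in control and 1498, 2362, 2295 and 2243 CPM in treatment after scaling. INHBA, the beta A subunit of inhibin and activin, lay at 32778 to 97306 CPM in control, at 44076 to 48268 CPM in treatment replicates 4, 5 and 6 and at 9583 CPM in treatment replicate 7.

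Markers of other cells were present and uneven. The 9 tested monocyte and macrophage markers summed to 25.6 to 662 CPM in control and 332 to 1549.6 CPM in treatment. All 9 had a higher fitted value in treatment, as did 52.9% of all features tested, while 47.1% were lower (median log2 fold change 1.06, against 0.04 over all 9272 features), and the 2 groups overlapped for each of them. Without treatment replicate 7 the median was 1.30, and 3 of the 9 did not overlap, C1QA, CD68 and MSR1, all higher in treatment (2.1% of all features). The part of these cells in the differences between the groups was not tested, apart from a fit with their score as a covariate. CD14, the lipopolysaccharide co-receptor of monocytes, lay at 5.23, 196, 10.1, 40.2 and 54.7 CPM in control and 283, 90.1, 46.3 and 50.4 CPM in treatment. The macrophage marker CD163 had 0 counts in every control library and was too low to test. PTPRC, the leukocyte antigen CD45, lay at 6.25, 87, 21.6, 35.2 and 52.2 CPM in control and 20.7, 30.5, 83.9 and 36.2 CPM in treatment, with a log2 fold change of 0.08 ± 0.66 (SE). All 9 tested pan-leukocyte markers had a higher fitted value (median 0.53), as did 10 of 11 T and NK cell markers (median 0.76), against 52.9% of all features. B and plasma cell markers divided into 3 higher and 3 lower (median -0.25). In the 9 libraries the groups overlapped for every tested member of these lists. Haemoglobin HBB was at 0 in 1 control and 3 treatment libraries and at most 39.5 CPM elsewhere, in libraries whose tissue field reads blood. Epithelial markers, 8 tested, summed to 37 to 3833 CPM in control and 60.3 to 2244 CPM in treatment, or 60.3 to 631 CPM without treatment replicate 7. Theca markers, also 8, summed to 507 to 2103 and 163 to 1353 CPM, or 163 to 549.6 CPM in treatment without replicate 7. In bulk RNA, fewer cells of a type and less RNA per cell cannot be told apart.

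**Figure D1:**
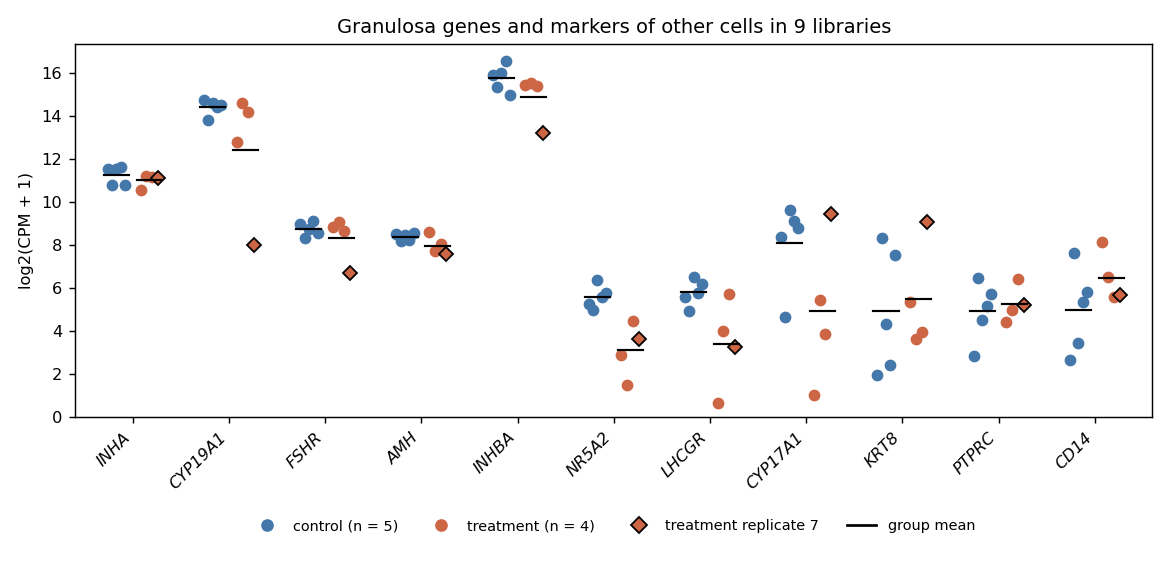
Level of granulosa genes and of markers of other cells in each library, as log2(CPM + 1), for 5 control (blue) and 4 treatment (orange) libraries, with treatment replicate 7 as a diamond and group means as lines. CYP19A1 of treatment replicate 7 (259 CPM) lies far below the other libraries. INHA chose the libraries and is shown only as a description. NR5A2 is lower in every treatment library than in any control library.

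Treatment was compared with control across genes by edgeR's quasi-likelihood test. Of 9272 features tested, 0 passed a Benjamini-Hochberg adjusted p of 0.05, and the lowest adjusted p was 0.983. At an unadjusted p under 0.05 there were 433 features (4.67%), 181 higher in treatment (1.95%) and 252 lower (2.72%). limma-voom also called 0, with 412 at an unadjusted p under 0.05, while DESeq2 called 21 of 10981 features, 6 higher (0.0546%) and 15 lower (0.137%). The 2 groups did not overlap for 147 features (1.59%), of which 62 (0.669%) were higher and 85 (0.917%) lower in every treatment library than in every control library. The share of 4.67% is not above what a threshold of 0.05 gives with no difference between groups. Some features also separate by chance in groups this small. Their expected number was not computed, so the 147 (1.59%) cannot be read as more than chance gives. Genes are described here because their libraries separate or their unadjusted p is low, and none of them passed edgeR's adjusted threshold.

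Leaving out treatment replicate 7 again gave no call by edgeR. More features then did not overlap, but a smaller group separates more easily. How much of this rise is built in was not computed, so its size cannot be credited to that library. Features without overlap were not counted with any other library left out. Of 9603 features tested in the 8 libraries, 0 passed, with a lowest adjusted p of 0.158 for GPRC5A, a retinoic acid-inducible receptor. The features at an unadjusted p under 0.05 numbered 640 (6.66%), 226 higher (2.35%) and 414 lower (4.31%), and 430 did not overlap (4.48%), 202 higher (2.1%) and 228 lower (2.37%). Fitted values were higher in treatment for 49.8% and lower for 50.2% of the features. With and without that library, 288 features were under 0.05 in both fits, which is 66.5% of the 433 and 45% of the 640, and all 288 had the same direction. Both fits share 8 libraries.

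**Figure D2:**
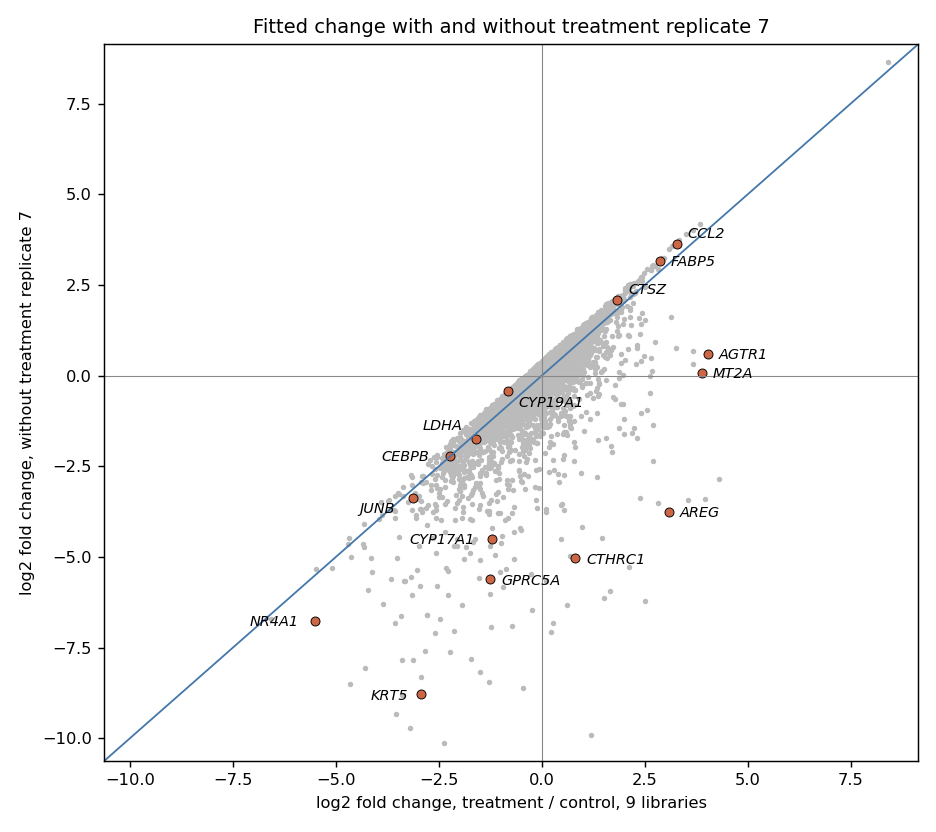
Log2 fold change of treatment against control fitted in 9 libraries (horizontal axis) and without treatment replicate 7 (vertical axis) for each feature tested in both (grey), with some named genes in orange and the line of equality in blue. CEBPB, JUNB, LDHA and CTSZ lie near the line, while MT2A goes from 3.90 to 0.07 and AREG from 3.08 to -3.76.

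Most genes of glycolysis had lower fitted values in treatment, although none passed the adjusted test. Of 20 tested genes of glycolysis and lactate handling, 17 had a lower and 3 a higher fitted value, with a median log2 fold change of -0.82, and 10 were lower at an unadjusted p under 0.05 (background 2.72%) and 0 higher. For 7 of the 20 the highest treatment library lay under the lowest control library (background 0.917%): LDHA, PDK1, TPI1, GAPDH, ENO1, GPI and PKM, the last pair named after their values were seen. The mean log2 CPM over the list was 6.58 to 7.06 in control and 5.44 to 6.17 in treatment, so these means did not overlap. Without treatment replicate 7 all 20 had a lower fitted value, with a median of -0.75, and the same 7 genes did not overlap.

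LDHA, the lactate dehydrogenase chain that forms lactate from pyruvate, lay at 140.3, 128, 132, 184 and 95.9 CPM in control and at 49.5, 18.5, 52.7 and 60 CPM in treatment. Its log2 fold change was -1.59 ± 0.35 (SE), and -1.76 ± 0.39 without treatment replicate 7. PDK1, a kinase that holds pyruvate back from the citrate cycle, lay at 290.2, 269.6, 310.3, 598 and 317 CPM in control and 81.2, 197, 158 and 102 CPM in treatment, a log2 fold change of -1.41 ± 0.35. Control replicate 7 was the highest library for PDK1, and the other 4 controls were close to each other. TPI1, triosephosphate isomerase, lay at 1563, 1351, 1576, 1967 and 1493 CPM in control and 884, 977, 935 and 808 CPM in treatment, with a log2 fold change of -0.82 ± 0.20. GAPDH, the next enzyme of the pathway and often used as a reference gene, lay at 2911, 2808, 2781, 3909.7 and 2887 CPM in control and 1681, 1897, 1764 and 1363 CPM in treatment, a log2 fold change of -0.87 ± 0.21. The groups did not overlap for any of these 4 genes, and none passed the adjusted test. The gap between the nearest libraries of the 2 groups was larger than the SD within either group for TPI1 and GAPDH, and smaller than the treatment SD for LDHA and PDK1.

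ENO1, enolase, was measured at 1028, 764, 506, 902 and 617 CPM in control and 494, 256, 475 and 241 CPM in treatment (-1.06 ± 0.32 on the log2 scale). The lowest control library, replicate 4, was close to the highest treatment library, so the separation of ENO1 was narrow. GPI, glucose phosphate isomerase, lay at 685 to 979 CPM in control and 231 to 612 CPM in treatment (-0.82). PKM, pyruvate kinase, lay at 42.7 to 61 CPM in control and 32.6 to 36.8 CPM in treatment (-0.57). The groups overlapped for the phosphofructokinase gene PFKL (-0.68), for PGK1 (-0.77), for the glucose transporter SLC2A3 (-0.95) and for the lactate exporter SLC16A3 (-1.57), all with lower fitted values in treatment. For SLC2A3 the library inside the control range was treatment replicate 5, at 452 CPM against 312 to 619 CPM in control, and for PGK1 it was also treatment replicate 5.

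**Figure D3:**
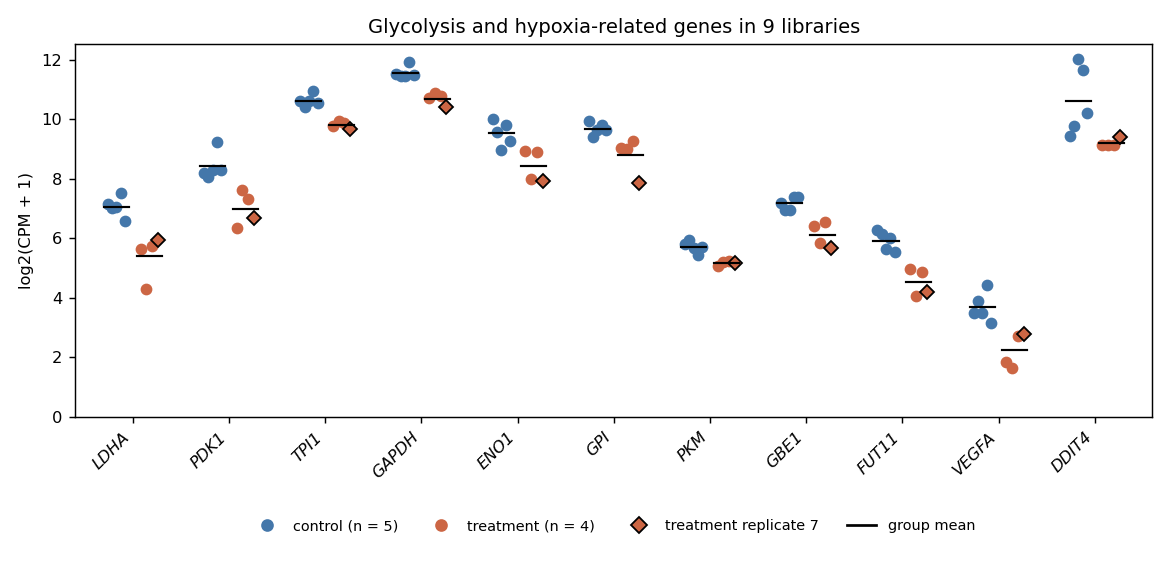
Level of genes of glycolysis and of oxygen-related genes in each library as log2(CPM + 1), with 5 control (blue) and 4 treatment (orange) libraries, treatment replicate 7 as a diamond and group means as lines. Shown are the 7 of 20 glycolysis genes and 2 of 13 hypoxia-inducible factor targets without overlap, with GBE1 and FUT11. For each of them no treatment library reaches the lowest control library, which follows from this choice. List members that overlap, such as PGK1, SLC2A3, BNIP3 and ADM, are not shown. The fitted log2 fold changes run from -0.57 for PKM to -1.78 for DDIT4.

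Mitochondrial pathways showed no such lean. The citrate cycle genes, 15 tested, divided into 7 with a higher and 8 with a lower fitted value (median 0.00), with 0 at an unadjusted p under 0.05. The 18 nuclear genes of oxidative phosphorylation divided 9 and 9 (median 0.01). Among 25 cytosolic ribosomal protein genes 17 were higher and 8 lower (median 0.06, near that of all features), and 0 were at an unadjusted p under 0.05. Whether the glycolysis list differed from these lists was not tested. When libraries were scaled by their size alone, the median of all features moved from 0.04 to 0.19 and that of glycolysis to -0.63, so the distance between the 2 medians was similar under both scalings.

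Targets of hypoxia-inducible factor, the regulator that answers low oxygen and that also acts on many glycolysis genes, had a lower fitted value in 9 of 13 tested members (median -0.59), and 2 of them did not overlap (0.917% of all features, lower in treatment). ADM, the vasodilator peptide adrenomedullin, went the other way, at 0.703, 1.23, 0.319, 0.355 and 0.399 CPM in control and 9.92, 0.683, 1.02 and 1.33 CPM in treatment, with a log2 fold change of 2.40 ± 0.90 (SE) and an unadjusted p under 0.05. Treatment replicate 4 alone was well above the controls, and the groups overlapped. VEGFA, the main growth factor for blood vessels, lay at 10.2, 14, 10.3, 20.6 and 7.98 CPM in control and 2.62, 2.16, 5.55 and 5.97 CPM in treatment, with a log2 fold change of -1.62 ± 0.50 (SE). DDIT4, a stress-induced brake on growth signalling, lay at 694, 884, 4139, 3198 and 1191 CPM in control and 558, 557, 558 and 677 CPM in treatment (-1.78 ± 0.53). The treatment libraries were nearly level for DDIT4, while control replicates 4 and 7 were several times higher than the other controls. HIF1A, the oxygen-regulated subunit itself, lay at 5749 to 11747 CPM in control and 5956 to 9329.6 CPM in treatment, with a log2 fold change of -0.11 ± 0.28. BNIP3, which acts in the removal of mitochondria and was named after its values were seen, lay at 359, 398, 274, 293 and 344 CPM in control and 108, 331, 153 and 76.1 CPM in treatment, with treatment replicate 5 inside the control range.

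GBE1 and FUT11, enzymes of glycogen branching and of fucose transfer, separated in the same way. GBE1 lay at 147, 122, 122, 168 and 166 CPM in control and 84.7, 56.7, 91.8 and 49.9 CPM in treatment (-1.03 ± 0.26 on the log2 scale). FUT11 lay at 77, 69.4, 48.6, 63.7 and 46 CPM in control and 30.4, 15.9, 28.2 and 17.4 CPM in treatment (-1.41 ± 0.32), and DESeq2 called it (adjusted p = 0.0298). FAM174B, a membrane protein gene, lay at 143, 93.5, 168, 109 and 129 CPM in control and 19.2, 74.2, 43.2 and 27 CPM in treatment (-1.65 ± 0.40). No treatment library reached a control library for any of the 3.

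The lowest p of all features with a symbol belonged to CEBPB, a transcription factor that takes part in the change of granulosa into luteal cells. It lay at 191, 117, 341, 205 and 127 CPM in control and at 51.1, 24.4, 51.8 and 40.4 CPM in treatment, a log2 fold change of -2.23 ± 0.38 (SE). The groups were far apart, with all treatment libraries close to each other, and the fitted value was -2.21 ± 0.44 without treatment replicate 7. Leaving out each of the 9 libraries in turn gave values between -2.36 and -1.94. DESeq2 called CEBPB (adjusted p = 0.000794), while edgeR gave an adjusted p of 0.983. The feature with the next lowest p, transcript XM_015468556.1, matched no symbol: it had 0 counts in every control library and lay at 9.08, 3.87, 0.853 and 1.4 CPM in treatment.

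Immediate early genes, which cells switch on within minutes of a stimulus, had a lower fitted value in 17 of 19 tested members (median -1.04, or -1.32 without treatment replicate 7). Of the 19, 5 were lower at an unadjusted p under 0.05 (2.72% of all features) and 3 did not overlap (0.917% of all features, lower in treatment). NR4A1, an orphan nuclear receptor, lay at 76.3, 8.61, 176, 202 and 70.7 CPM in control and at 1.5, 0, 1.37 and 6.34 CPM in treatment, a log2 fold change of -5.51 ± 1.22 (SE). Control replicate 3 was the only control near the treatment libraries, at 8.61 CPM against 6.34 CPM in treatment replicate 7. DESeq2 called NR4A1 (adjusted p = 0.000169), and leaving out each library in turn gave values between -6.76 and -5.11. JUNB, a subunit of the AP-1 transcription factor, lay at 726, 573, 2646, 3367 and 711 CPM in control and 130.5, 264, 67.8 and 276 CPM in treatment (-3.12 ± 0.69), and DESeq2 called it too (adjusted p = 0.0087). EGR1, a zinc finger factor that the LH surge is known to induce, lay at 2574, 726, 3796, 5098 and 1025 CPM in control and 466, 666, 61.4 and 616 CPM in treatment (-2.55 ± 0.75).

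The separation of EGR1 was narrow, since treatment replicate 5 lay just under control replicate 3. JUND, another AP-1 subunit, lay at 662, 379, 1351, 1043 and 658 CPM in control and 243, 404, 168 and 193 CPM in treatment (-1.70 ± 0.41), so control replicate 3 lay just under treatment replicate 5. FOS, the partner of the JUN proteins, did not share the pattern: it lay at 795, 1598, 847, 1156 and 813 CPM in control and 354, 1049, 53.6 and 1774 CPM in treatment (-0.37 ± 0.71), with treatment replicate 7 the highest of all. FOS was named after its values were seen. Control replicates 4 and 7 had the highest levels of JUNB, EGR1, NR4A1, DDIT4 and GOT1, and their part in these differences was measured only by leaving each out alone: JUNB then lay between -3.38 and -2.64 over the 9 omissions.

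**Figure D4:**
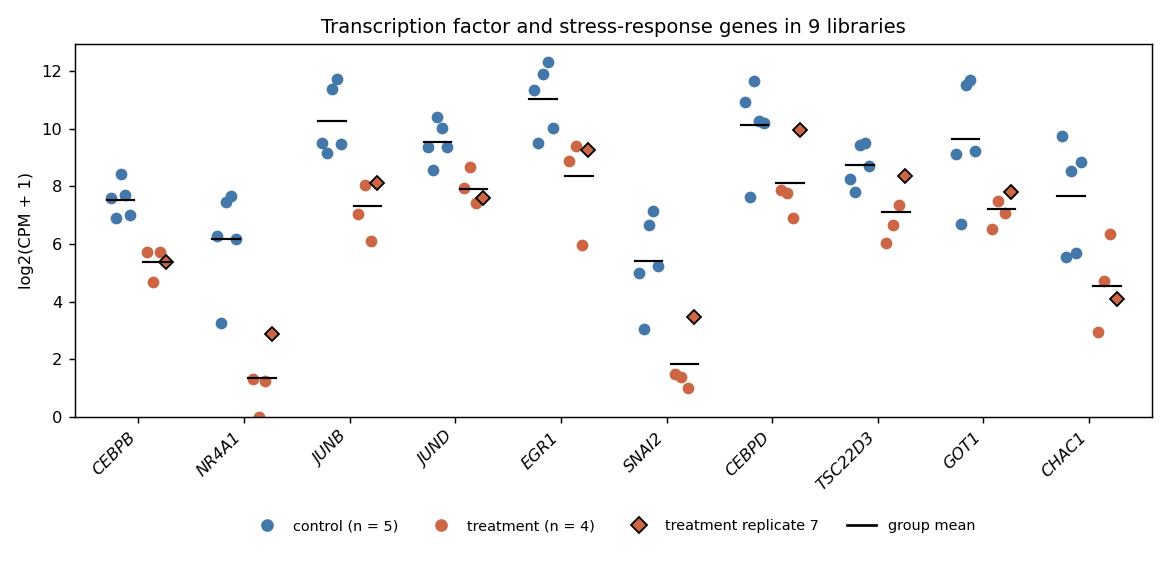
Level of transcription factor and stress-response genes in each library as log2(CPM + 1), with 5 control (blue) and 4 treatment (orange) libraries, treatment replicate 7 as a diamond and group means as lines. CEBPB, NR4A1, JUNB and EGR1 do not overlap between the groups. JUND, SNAI2, CEBPD, TSC22D3, GOT1 and CHAC1 overlap in at least 1 library.

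Of the further lower genes, 4 overlapped in 1 or a few libraries and CLEC3B did not overlap. SNAI2, a zinc finger repressor known from cell migration, lay at 30.9, 7.22, 100.3, 141 and 36.7 CPM in control and 1.78, 1.59, 1.02 and 10.1 CPM in treatment (-4.11 ± 1.01 on the log2 scale). Only treatment replicate 7 reached the control range, and the value without it was -5.43 ± 1.01. GOT1, the cytosolic aspartate aminotransferase, lay at 554, 103, 2902, 3296 and 601 CPM in control and 89.8, 178, 135 and 224 CPM in treatment (-3.25 ± 0.89). Here control replicate 3 lay inside the treatment range. CHAC1, which breaks down glutathione under amino acid stress, lay at 861, 46.2, 371, 50.1 and 456 CPM in control and 6.74, 25.3, 80.5 and 16.2 CPM in treatment (-3.47 ± 1.02), with 2 controls among the treatment values. SLC9B2, a sodium-proton exchanger, lay at 58.6, 17.2, 215, 294 and 38.7 CPM in control and 3.37, 3.64, 21.6 and 10.1 CPM in treatment (-3.68 ± 0.95), and CLEC3B, tetranectin, lay at 10.4, 26.9, 18, 9.46 and 18.6 CPM in control and 3.46, 5.69, 3.58 and 6.19 CPM in treatment (-1.81 ± 0.46) without overlap.

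SNAI2, GOT1, CHAC1, SLC9B2 and CLEC3B were among the 21 DESeq2 calls, with adjusted p-values of 0.0053, 0.0478, 0.0494, 0.0125 and 0.0464. The 21 comprised 11 genes with a symbol and 4 transcripts without one on the lower side, and 3 of each on the higher side. The other calls with a symbol were LIX1 and LOC515578 (lower) and ECRG4, NPL and RPL3L (higher). NPL and RPL3L did not pass edgeR's filter on low counts.

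Among granulosa genes, 1 of 16 listed markers did not overlap, and it was lower in treatment (0.917% of all features). NR5A2, the nuclear receptor that drives genes of steroid synthesis and is needed for ovulation, lay at 37.2, 30.1, 82.9, 47.2 and 54.1 CPM in control and 6.46, 1.82, 21.4 and 11.6 CPM in treatment, a log2 fold change of -2.28 ± 0.63 (SE). The value was -2.34 ± 0.73 without treatment replicate 7. The list as a whole had a lower fitted value for 11 genes and a higher one for 5 (median -0.43). GJA1, the gap junction protein connexin 43, lay at 5038 to 18682 CPM in control and 4918 to 9814 CPM in treatment (-0.83 ± 0.38), with overlap.

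Steroid synthesis genes, 15 tested, had a lower fitted value in 10 (median -0.43), and 0 were at an unadjusted p under 0.05. STAR, which moves cholesterol into mitochondria, lay at 41.5, 17, 234, 335 and 269.5 CPM in control and 127, 44.3, 22 and 10.7 CPM in treatment (-1.82 ± 0.92). CYP11A1, which makes pregnenolone from cholesterol, lay at 2431 to 6228 CPM in control and 2421 to 4017 CPM in treatment (-0.61 ± 0.32). Both genes overlapped between the groups. LHCGR, the LH receptor that large follicles acquire, lay at 47.3, 29.8, 89.7, 54.4 and 71.6 CPM in control and 0.562, 14.9, 51.7 and 8.62 CPM in treatment (-1.63 ± 0.88). Its treatment values thus ranged from under 1 CPM in replicate 4 to the level of the controls in replicate 6. LRP8, a lipoprotein receptor abundant in bovine granulosa cells, lay at 27756, 14339.8, 32423, 50401 and 14927 CPM in control and 10089, 6493, 20287 and 10868 CPM in treatment (-1.23 ± 0.46). OAT, ornithine aminotransferase, lay at 6304, 2704, 9056, 14104 and 4891 CPM in control and 1889, 2969, 2767 and 3581 CPM in treatment (-1.40 ± 0.44).

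The genes that were higher in every treatment library had varied roles. CTSZ, the lysosomal protease cathepsin Z, had the lowest p among the higher genes with a symbol: it lay at 62.9, 71.1, 87.8, 93.7 and 90.6 CPM in control and 509.5, 389, 147 and 111 CPM in treatment, a log2 fold change of 1.83 ± 0.42 (SE). Treatment replicates 4 and 5 were the highest, and replicate 7 was the closest to the controls. FABP5, a fatty acid-binding protein, lay at 2.58, 37.3, 7.26, 34.1 and 41.6 CPM in control and 515, 91.8, 57.1 and 53.6 CPM in treatment (2.87 ± 0.91). Among the controls, FABP5 varied more than CTSZ. FADS6, of the fatty acid desaturase family, lay at 3.43, 5.33, 8.22, 11.1 and 9.98 CPM in control and 51.3, 18, 14.1 and 17.2 CPM in treatment (1.72 ± 0.52). RASL11B, a small GTPase gene, lay at 2.97, 21, 4.31, 20.6 and 19.4 CPM in control and 61.9, 59.9, 31.9 and 25.1 CPM in treatment (1.71 ± 0.62). BOD1L1, a protein of chromosome and replication fork protection, lay at 48.6, 50.5, 47.9, 36.3 and 37.4 CPM in control and 116, 75, 63.9 and 80.7 CPM in treatment (0.93 ± 0.26), and WDR46, a nucleolar protein gene, at 46, 38.6, 39.6, 21.9 and 34.5 CPM in control and 63.8, 65.3, 58.8 and 76.4 CPM in treatment (0.87 ± 0.27). These 6 genes had no overlap, and all of them kept a higher fitted value without treatment replicate 7.

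CD68, CTSK, CCL2, ANGPT2 and ECRG4 also had higher fitted values in treatment, and none of these genes separated in all 9 libraries. CD68, a lysosomal protein of macrophages, lay at 6.09, 52.6, 24.4, 57 and 25 CPM in control and 460.4, 138, 60.8 and 38.7 CPM in treatment (2.40 ± 0.78 on the log2 scale). CTSK, cathepsin K, lay at 79.5, 180.3, 167, 310.0 and 281 CPM in control and 1477, 571, 379 and 137 CPM in treatment (1.66 ± 0.60). CCL2, a chemokine that draws monocytes, lay at 5.93, 38.9, 3.51, 15.4 and 55.1 CPM in control and 437, 415, 38.4 and 35.5 CPM in treatment (3.28 ± 0.99). For CCL2 treatment replicates 4 and 5 stood far above all others, while replicates 6 and 7 lay inside the control range. ANGPT2, which destabilises blood vessels, had the same 2 high libraries, with 2.26, 6.07, 3.99, 13.4 and 8.08 CPM in control and 220.2, 41.3, 7.93 and 4.49 CPM in treatment (3.34 ± 1.03). ECRG4, a secreted peptide precursor, was called by DESeq2 (adjusted p = 0.0494) on the same pair of libraries, with 2.81, 2.05, 4.39, 5.09 and 4.69 CPM in control and 73.7, 92.4, 4.69 and 2.21 CPM in treatment.

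With the mean log2 CPM of the monocyte and macrophage markers as a covariate, edgeR's log2 fold change fell for most of the higher genes named here. It went from 2.40 to 0.66 for CD68, 1.66 to 0.45 for CTSK, 2.87 to 0.84 for FABP5 and 3.34 to 1.39 for ANGPT2. For CCL2 it went from 3.28 to 1.80, for CTSZ from 1.83 to 1.35 and for BOD1L1 from 0.93 to 0.90, and for WDR46 it was 1.08. On the lower side it was -5.00 for NR4A1, -3.21 for JUNB, -1.54 for LDHA, -0.83 for TPI1 and -0.95 for GAPDH, each close to its value without the covariate. CHAC1 went from -3.47 to -1.49 and CEBPD from -1.98 to -0.77 with it, so these lower genes moved by over 2 times. CD68 is one of the markers in the score. The score is itself made from these libraries and was higher on average in treatment, 5.16 ± 0.74 against 3.38 ± 1.73 (mean ± SD).

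For several genes the fitted change depended on treatment replicate 7. MT2A, a metallothionein that binds zinc, lay at 71.4, 83.2, 42.9, 266 and 76.6 CPM in control, at 84.4, 185 and 71.6 CPM in treatment replicates 4, 5 and 6, and at 6086 CPM in replicate 7. MT1A, of the same family and uncertain because near-identical copies can share reads, lay at 37 to 195 CPM in the controls, at 44 to 177 CPM in 3 treatment libraries and at 2329 CPM in replicate 7. AGTR1, an angiotensin receptor, lay at 0 to 2.99 CPM in control, 1.25 to 2.47 CPM in 3 treatment libraries and 78 CPM in replicate 7. Without replicate 7 the log2 fold change went from 3.90 to 0.07 for MT2A, from 2.67 to 0.13 for MT1A and from 4.04 to 0.60 for AGTR1.

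Genes of the LH surge and of cumulus expansion separated replicate 7 from the other treatment libraries. The mean log2 CPM over the 12 tested was 7.36 in replicate 7, 3.36 to 3.49 in the other 3 and 2.83 to 6.24 in control. The median log2 fold change of the list was 0.52 with replicate 7 and -1.95 without it, although the mean score was lower in treatment (4.42 ± 1.96) than in control (4.96 ± 1.30, mean ± SD). AREG, amphiregulin, lay at 2.11, 70, 13.8, 35.7 and 9.08 CPM in control, 1.22, 3.75 and 0.853 CPM in treatment replicates 4, 5 and 6, and 880.1 CPM in replicate 7. TNFAIP6, which crosslinks the hyaluronan matrix of the cumulus, lay at 317, 207, 10256, 10499 and 1087 CPM in control, 54.9, 420.1 and 674 CPM in those 3 and 23917 CPM in replicate 7. Control replicates 4 and 7 shared a high TNFAIP6 level with treatment replicate 7.

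FGF2, a growth factor for blood vessels and granulosa cells, was high in the same 3 libraries, with 11.7, 18.4, 2255, 21165 and 88.1 CPM in control, 12.1, 20.5 and 16.4 CPM in treatment replicates 4, 5 and 6, and 6632 CPM in replicate 7. PLK2, a kinase induced by stress and by growth signals, lay at 355, 32.5, 2144, 6368 and 602 CPM in control, 28.9, 7.74 and 6.4 CPM in those 3 treatment libraries and 1699 CPM in replicate 7. Its log2 fold change was -2.13 with replicate 7 and -7.05 without it. The level of these genes thus varied by orders of magnitude within the control group as well.

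Genes separated only without replicate 7 in both directions, with 228 features lower and 202 higher in treatment against 85 and 62 in all 9 libraries. Part of this rise is built in, since the treatment group is then smaller. On the higher side CCL14, a chemokine, lay at 0.156, 3.36, 2.95, 2.25 and 0.698 CPM in control, 13.5, 35.5 and 14.8 CPM in treatment replicates 4, 5 and 6 and 1.1 CPM in replicate 7, and CTSK, the protease cathepsin K, lay at 79.5 to 310.0 CPM in control, 379 to 1477 CPM in those 3 and 137 CPM in replicate 7. The next 5 genes were low in treatment replicates 4, 5 and 6. GPRC5A lay at 4.76, 12, 10.1, 7.57 and 8.48 CPM in control, at 0.187, 0.228 and 0.0853 CPM in treatment replicates 4, 5 and 6, and at 13.8 CPM in replicate 7. These 3 low values rest on fewer than 3 counts each, so the fitted value of -5.62 without replicate 7 depends on the prior count. TCIM lay at 34.1, 259.6, 290.2, 2445 and 119.5 CPM in control, 2.25, 1.93 and 2.82 CPM in those 3 and 121 CPM in replicate 7 (-4.30, and -8.07 without it). KRT5, a keratin of basal epithelium, lay at 3.36, 188, 59.8, 4.38 and 59.1 CPM in control, 0.187, 0.228 and 0 CPM in those 3 and 32.4 CPM in replicate 7. NTS, neurotensin, lay at 58.5, 2123, 375, 9.46 and 216 CPM in control, 0.936, 2.5 and 1.37 CPM in those 3 and 909 CPM in replicate 7. Collagen-related CTHRC1 lay at 0.937 to 11.4 CPM in control, 0.171 to 0.228 CPM in those 3 and 46.8 CPM in replicate 7, and its log2 fold change turned from 0.81 to -5.04. The values of KRT5 and CTHRC1 in those 3 libraries also rest on fewer than 3 counts each, so the size of -5.04 is uncertain.

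All 8 epithelial markers had a lower fitted value without replicate 7 (median -2.71), and their part in the genes that separate then was not tested. CYP17A1, the androgen-forming enzyme of theca cells, lay at 333, 23.9, 790.2, 551 and 448 CPM in control, 1.03, 42.2 and 13.7 CPM in treatment replicates 4, 5 and 6, and 689 CPM in replicate 7. Its log2 fold change was -1.20 ± 1.39 (SE) with replicate 7 and -4.51 ± 1.29 without it, and control replicate 3 lay inside the range of the 3. The part of theca cells in this value was not tested. CEBPD, a factor related to CEBPB, lay at 1924, 196, 3201, 1235 and 1159 CPM in control and 234, 216, 119 and 992 CPM in treatment (-1.98, and -3.03 without replicate 7). TSC22D3, known to be induced by glucocorticoids, lay at 304, 224, 689.7, 717 and 418 CPM in control and 64.7, 101, 161 and 329 CPM in treatment (-1.52, and -2.11 without replicate 7).

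Other lists gave medians in both directions with few low p-values. Cell cycle genes had a higher fitted value in 18 of 23 (median 0.51, and 0.78 without replicate 7), with 0 at an unadjusted p under 0.05 in the 9 libraries. Interferon-stimulated genes were higher in 12 of 15 (median 0.67), and with the monocyte and macrophage score as a covariate their median was -0.23. Inflammatory cytokines and chemokines were higher in 10 of 16 (median 0.74, and -0.48 with the covariate). Heat shock protein genes were lower in 11 of 14 (median -0.31) and unfolded protein response genes in 12 of 18 (median -0.23). Fibroblast and stroma markers were lower in 4 of 5 (median -2.24, and -1.79 without replicate 7) and complement genes in 7 of 9. For the unfolded protein response, the mean log2 CPM was 7.99 to 8.52 in control, 7.84 to 7.91 in treatment replicates 4, 5 and 6 and 8.31 in replicate 7.

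**Figure D5:**
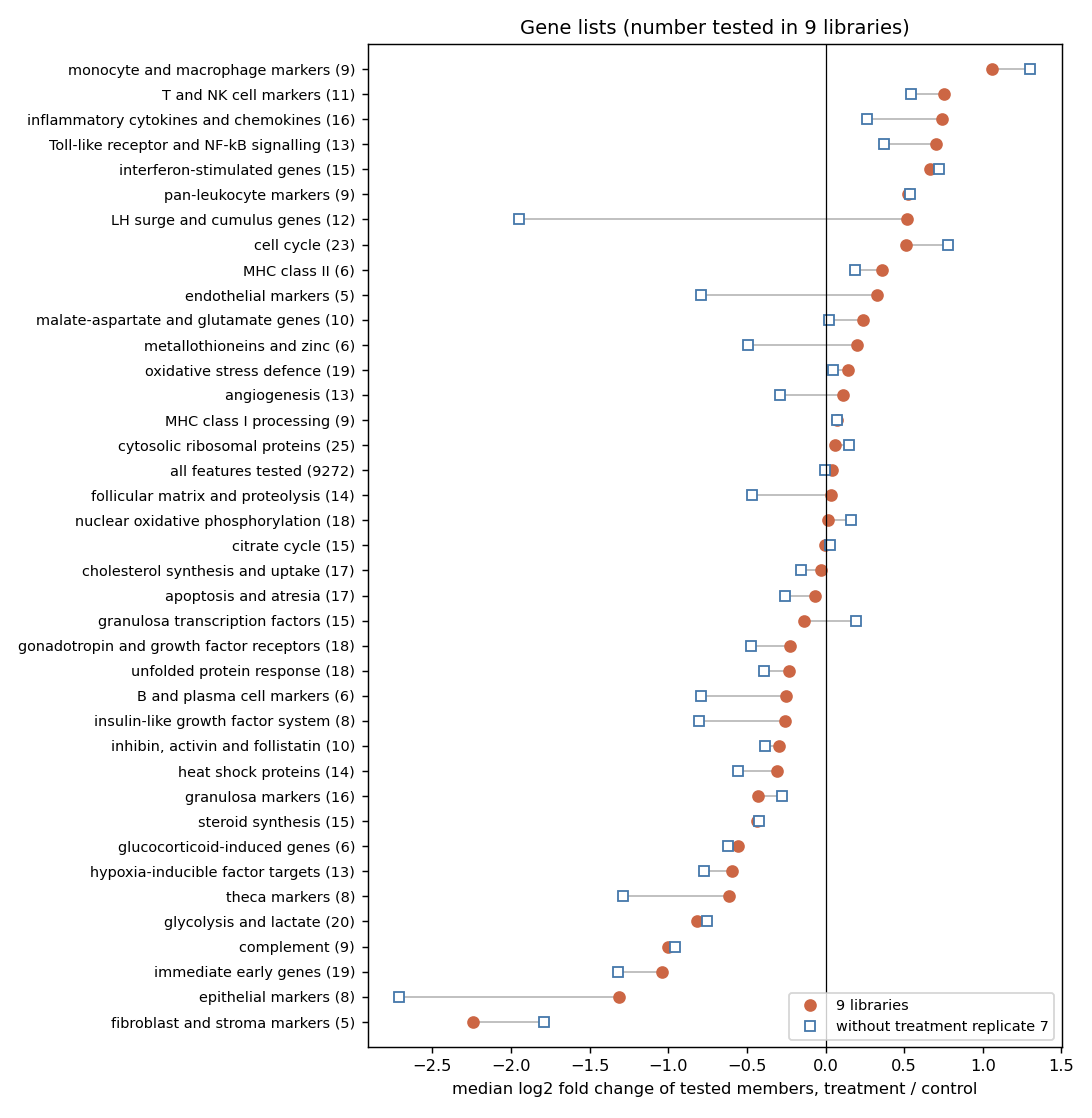
Median log2 fold change of treatment against control over the tested members of each gene list with at least 5 tested members and over all features, in 9 libraries (filled) and without treatment replicate 7 (open). Glycolysis (-0.82 and -0.75) and immediate early genes (-1.04 and -1.32) stay below 0 in both, while LH surge and cumulus genes go from 0.52 to -1.95. Other lists also stay below 0 in both, among them fibroblast and stroma (-2.24 and -1.79), epithelial (-1.31 and -2.71), theca (-0.62 and -1.29) and complement. The fibroblast and stroma median is the lowest shown in 9 libraries, and the epithelial median is the lowest without treatment replicate 7.

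To see whether these values were particular to the granulosa-rich libraries, the treatment effect in them was set against that in the 7 others in 1 edgeR fit of all 16 libraries. Of 11468 features tested, 0 differed at an adjusted p of 0.05, and 609 did at an unadjusted p under 0.05, 309 more positive (2.69%) and 300 more negative (2.62%) in the granulosa-rich libraries. limma-voom also called 0, with 529 at an unadjusted p under 0.05. NR4A1, CEBPB and JUNB were among the 609. The genes named here and below were picked with their values in the granulosa-rich libraries known. Those values enter the difference too, so it leans to the same sign by choice. It therefore cannot show that their change is particular to these libraries. NR4A1 differed by -7.39 ± 1.52 (SE), with a log2 fold change of 1.88 in the 7 other libraries. CEBPB differed by -3.06 ± 0.69, with 0.82 in the others. JUNB differed by -3.96 ± 0.97, with 0.84 in the others.

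Immediate early genes differed in the same comparison in 5 of 19 members at an unadjusted p under 0.05, all 5 more negative in the granulosa-rich libraries (2.62% of all features), and the list's median log2 fold change in the 7 other libraries was 0.51. Among glycolysis genes LDHA differed by -1.57 ± 0.74 and PDK1 by -1.50 ± 0.60, both at an unadjusted p under 0.05. TPI1 differed by -0.60 ± 0.36 and GAPDH by -0.75 ± 0.41, and neither was under that threshold. The median of the 20 glycolysis genes was -0.03 in the 7 others. On the higher side CTSZ differed by 2.41 ± 0.60 and WDR46 by 1.30 ± 0.33, both at an unadjusted p under 0.05. None of these differences passed the adjusted threshold.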

How the data were processed

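RNA was measured in 16 libraries, and the 9 with INHA above 1000 CPM were compared, 5 control with 4 treatment. Per the labels' protocols, poly(A) RNA (200 ng input, RIN of 7 or more) was made into unstranded libraries with 12 cycles of PCR, so reads of overlapping or antisense genes cannot be assigned to one of them. The tools named are cutadapt, Bowtie2 and SAMtools, per the submitters' processing notes. How and in which versions they ran, the build and annotation, and what was done with multi-mapping reads is not given in the sources used here, so genes with near-identical copies are uncertain.

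The authors deposited raw counts, 1 whole number for each RefSeq accession and library. Accessions without a line in a file were taken as 0. Of 27306 accessions, 133 genomic records (1.22 to 1.92% of the counts of the 9 libraries) were left out. The ARS-UCD2.0 gene table of RefSeq gave the symbols but no coordinates: 18973 of 27173 transcripts found one, with 95.1% of the counts, and counts were summed per gene.

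Groups were compared with edgeR 4.0.16 in R 4.3.3 (quasi-likelihood, robust estimation, TMM scaling, filter on low counts by group, Benjamini-Hochberg adjusted p under 0.05). Standard errors were derived from the log2 fold change and the F value, and log2 CPM uses a prior count of 1. The effect difference came from a fit of all 16 libraries in 4 classes. The groups were said not to overlap where every value of one lay above every value of the other. The fit was tested on simulated data.

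The libraries, the 41 gene lists and the naming rule were chosen with earlier results of these data known. Named were the 25 symbols with the lowest p at a mean log2 CPM of at least 1, with and without treatment replicate 7, from each list its 3 lowest p-values and its most abundant gene, genes fixed by name, the 10 most abundant genes per group, the 10 genes farthest outside the range of the other libraries in replicate 7 per direction and the 5 widest gaps per direction. GPI, PKM, PFKL, PGK1, SLC2A3, SLC16A3, BNIP3, FOS, CD163, NPL, RPL3L, LIX1 and the transcript without a symbol were also drawn on after their values were seen where the rule did not reach them.

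Alternatives were other scalings (RLE, upper quartile, library size alone), a filter left out or raised to 10 counts in each library, DESeq2 1.42.0 and limma-voom (limma 3.58.1) with and without sample weights, no robust estimation, a replicate block, a monocyte and macrophage score as covariate, all 16 libraries in the fit, counts per accession, an adjusted p of 0.1, and each library left out. Replicate numbers 4 and 7 occur in both groups. Their deviations from the group means correlated at -0.153 and 0.182 over 9272 features. Libraries of unlike number were not correlated for reference, so these values cannot decide whether the numbers pair libraries. The labels name no pairs, and the main fit used none.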

Additional observations from a re-analysis of the deposited data

Results flagged for a closer look

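Of 196 sets of 4 or 5 libraries examined (60 genes and 38 lists in each group), 20 held a library far from the others by the gap to its nearest neighbour relative to the whole range, where chance gives about 1 in 20 sets. Some of the 60 genes were named because treatment replicate 7 lay apart in them, so the number of sets found cannot be read against chance. Of the 20, 11 were treatment replicate 7, 4 were treatment replicate 5, 1 was treatment replicate 6, and control replicates 3 and 7 had 2 each. Values here are log2 CPM, or the mean log2 CPM of a list.

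Treatment replicate 7 was high for AGTR1 (6.29, next 1.36), FGF2 (12.70, next 4.36), GPRC5A (3.79, next -1.66), TCIM (6.92, next 1.54), NTS (9.83, next 1.37), CTHRC1 (5.55, next -1.66) and DDIT4 (9.40, next 9.12), and low for INHBA (13.23, next 15.43). DDIT4 was picked out because the 3 other treatment libraries were almost level. The same library was high for LH surge and cumulus genes (7.36, next 3.49), for inhibin, activin and follistatin genes (6.92, next 6.04) and for unfolded protein response genes (8.31, next 7.91).

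Treatment replicate 5 was high for CYP11A1 (11.97, next 11.30) and low for LDHA (4.22, next 5.63), for Toll-like receptor and NF-kB signalling genes (4.10, next 4.51) and for apoptosis and atresia genes (1.84, next 3.66). Treatment replicate 6 was low for EGR1 (5.94, next 8.86). Control replicate 7 was high for PDK1 (9.22, next 8.31) and GAPDH (11.93, next 11.51), both of them glycolysis genes that were lower in treatment without overlap. Control replicate 3 was low for CYP17A1 (4.59, next 8.38) and high for gonadotropin and growth factor receptor genes (4.21, next 3.76).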

How the results depend on the processing

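edgeR called 0 genes between treatment and control under each alternative run with it, with each of the 9 libraries left out (0 to 0) and at an adjusted p of 0.1, and limma-voom also called 0, while DESeq2 called 21. The difference of the effect against the other libraries gave 0 calls in both alternatives. The count at an unadjusted p under 0.05 was 433, and it lay between 259 (without control replicate 4) and 640 (without treatment replicate 7) when 1 library was left out. It was 1188 with no filter, 256 with the monocyte and macrophage score as covariate, 836 with DESeq2, 997 with limma-voom and sample weights and 1057 with all 16 libraries in the fit. The features without overlap went from 147 to 430 without treatment replicate 7, a rise that is in part built in, as the smaller group separates more easily.

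With the replicate number as a block, 0 genes were called and 1022 had an unadjusted p under 0.05. Only numbers 4 and 7 occur in both groups, so the block rests on 4 libraries, and it moved the glycolysis median to -1.09.

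Of 60 genes, 54 kept their direction under every alternative that gave them a value, and counts per accession were not compared for single genes. Many of the 60 were named for a low p or a separation in these same libraries. Their kept direction is therefore no independent support. The remaining genes turned as follows. FSHR lay between -0.44 and 0.09, AREG between -3.76 and 3.88, TNFAIP6 between -3.55 and 1.06, CTHRC1 between -5.04 and 1.21, FGF2 between -8.18 and 1.47 and NTS between -8.45 and 0.48 as libraries were left out. Those at the turn were control replicate 7 for FGF2, control replicate 3 for NTS and treatment replicate 7 for the rest. limma-voom gave -0.67 for AREG, -0.87 for TNFAIP6 and -2.20 for CTHRC1, with sample weights -2.33, -2.10 and -3.29, and the replicate block gave -3.17 for TNFAIP6 and -0.56 for CTHRC1. The cause was not tested. The steroid synthesis median went to 0.02 without control replicate 7, and the unfolded protein response median to -0.02 with library size alone. Genes under 3 counts in a library are limited by depth.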

Other observations

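Further genes set treatment replicate 7 apart from the 8 other libraries. HSD17B1, which forms oestradiol from oestrone, was low there at 8.47 CPM against 143 to 266 CPM in control and 114 to 324 CPM in the other treatment libraries. TK1, a thymidine kinase of dividing cells, was also low there at 7.15 CPM against 96.6 to 303 and 264 to 327 CPM. High there alone were AHSG, fetuin-A, at 1758 CPM against 1.64 to 83 and 0.341 to 8.42 CPM, and ANKRD1, a stretch-responsive gene, at 197 CPM against 0 to 12 and 0.455 to 13 CPM.

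Control replicate 3 held the most immunoglobulin chain-joining JCHAIN (2147 CPM, against 4.22, 5.83, 9.22 and 149.6 CPM in the other controls) and the most of the epithelial immunoglobulin transporter PIGR (1125 CPM). Treatment libraries lay at 12.8 to 61.1 CPM for JCHAIN and 0.187 to 510.5 CPM for PIGR. The collagen gene COL1A2 was high in control replicates 3 and 8 (745 and 1014 CPM) and at 15.4 to 60.3 CPM in treatment. JCHAIN and PIGR were chosen after their values were seen.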
